A study of Mus musculus with 10 samples.

Results

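The Dlk1-Dio3 region of mouse chromosome 12 is an imprinted domain, in which a gene is read mainly from the copy inherited from 1 parent. The copy from the father expresses the protein genes Dlk1, Rtl1 and Dio3, and the copy from the mother expresses the long noncoding RNAs Meg3, Rian and Mirg together with a large group of microRNA genes. Many of these microRNAs are cut from hairpins carried in long maternal transcripts, a group of them on the strand opposite Rtl1, others inside Rian, in the interval between Rian and Mirg, or inside Mirg. The region is known for high expression in the embryo and in fetal muscle, and for low expression in adult muscle.

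Its members here were the 6 long genes just named and 43 microRNA genes between Dlk1 and Dio3, 49 in all. Small nucleolar RNAs and other noncoding transcripts annotated there were not members. The names came from a list of 44 genes, and 5 further hairpins were found by their position (Mir299a, Mir323, Mir329, Mir433 and Mir487b). A probe set of its own, that is a group of short probes assigned to 1 gene only, was present for 45 of them, 5 long genes and 40 microRNA genes, out of 19938 genes measured. Mirg, Mir410 and Mir433 had only probe sets that carry a second gene, and no probe set was found for Mir758. Every member measured had 1 probe set of its own, and Rian also had 1 shared with another transcript. The probe sets for hairpins read any RNA that holds the hairpin sequence, so the host transcript and the cut precursor cannot be told apart, and the mature microRNA was not measured.

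RNA was read on 10 Affymetrix arrays (Mouse Gene 1.0 ST), from mice labelled as 8 weeks old and of strain C56BL6N, as the labels spell it; the methods write C57Bl6. In gastrocnemius, a calf muscle rich in fast fibers, 3 arrays of conditional knockout mice were set against 3 arrays of wild type controls. The knockout carries floxed alleles of a transcription factor gene and a CRE under the human skeletal actin promoter (HSA-CRE), which acts in muscle fibers, so other cells of the muscle keep the gene. In the tibialis anterior (TA), 2 arrays of fibers that received 10 µg of a plasmid with an shRNA against linc-MYH (shlincMYH) were set against 2 arrays of fibers with a control vector; fibers were taken 2 weeks after electroporation and were dissected by their green fluorescence. The deposited values are log2 signals. The TA arrays had medians of 5.09 to 5.14 and the gastrocnemius arrays medians of 6.60 to 6.67, so no signal was compared between tissues. The 8 markers of skeletal muscle fibers lay at or above the 98.8th percentile of the TA controls and the 99.7th percentile of the gastrocnemius controls. Neither the deleted gene nor linc-MYH was analysed here, so the values give no check of the knockout or of the knockdown.

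The sequences below are shown because these hairpins had the highest fold changes in knockout gastrocnemius, or because they are near copies of one of these. The capitals mark the seed, bases 2 to 8 counted from the 5′ end, which pairs with target RNAs. All lie on the plus strand of GRCm38.p6 and were taken from RefSeq.
miR-377-5p, chr12:109740515-109740536: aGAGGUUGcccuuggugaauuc
miR-377-3p, chr12:109740553-109740574: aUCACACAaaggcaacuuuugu
miR-382-5p, chr12:109733781-109733802: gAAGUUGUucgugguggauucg
miR-382-3p, chr12:109733819-109733840: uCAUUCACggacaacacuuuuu
miR-323-3p, chr12:109712558-109712578: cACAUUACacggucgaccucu
miR-134-5p, chr12:109734145-109734166: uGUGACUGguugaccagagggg
miR-380-3p, chr12:109711842-109711863: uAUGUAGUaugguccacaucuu
miR-379-3p, chr12:109709102-109709123: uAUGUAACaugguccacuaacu
miR-411-3p, chr12:109710225-109710246: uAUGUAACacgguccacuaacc
miR-300-3p, chr12:109724363-109724384: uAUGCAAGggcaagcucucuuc
miR-381-3p, chr12:109726870-109726891: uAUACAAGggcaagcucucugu
miR-127-3p, chr12:109592888-109592909: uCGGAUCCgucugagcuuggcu
RefSeq gave 82 mature sequences for the 43 microRNA genes, with 79 distinct seeds, and 3 seeds were shared by more than 1 of them. One of these is AUGUAAC, common to miR-379-3p and miR-411-3p. The other pairs with a shared seed were miR-376b-5p with miR-376c-5p (UGGAUAU) and miR-494-5p with miR-410-5p (GGUUGUC). Near copies do not always share a seed. Counted from the 5′ end, miR-381-3p and miR-300-3p were identical at 19 of 22 bases and differed by A4G, G21U and U22C, the first of which lies in the seed. miR-379-3p and miR-411-3p differed by U10C and U22C, both outside it. miR-127-3p is shown for the hairpins opposite Rtl1, since miR-127 is complementary to Rtl1 RNA.

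In knockout gastrocnemius 21 of the 45 measured region genes rose and 0 fell, at an adjusted p under 0.05 (limma, Benjamini-Hochberg over all genes). By the methods' t-test 30 of the 45 were higher at an unadjusted p under 0.05, and 0 after the same adjustment. Over all 19938 genes 1.74% were called, of which 0.908% rose and 0.833% fell. Those that rose were the paternally expressed Dlk1, the maternal long RNAs Meg3 and Rian, and 18 of the 40 microRNA genes. The fold change was above 0 for 44 of the 45, against 52.7% of all genes, and its median was 0.51 on the log2 scale, against 0.01 for all genes. An unadjusted p under 0.05 was reached by 35 of the 45, all of them higher, against 14.9% of all genes. For 36 members every knockout array lay above every control array, and for 0 every one lay below, where 11.0% and 9.85% of all genes did so. Of 9 members that were at least 2-fold higher, Meg3 and Rian were long genes and the rest hairpins, while 0.291% of all genes reached that size.

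Meg3, a long noncoding RNA at the start of the maternal transcripts, had log2 signals of 10.34, 8.96 and 9.68 on the control arrays and of 11.47, 11.50 and 11.40 on the knockout arrays. The groups did not overlap, and the controls were spread far more widely (SD 0.69, n = 3) than the knockout arrays (SD 0.05, n = 3). The difference was 1.80 (standard error 0.29), or 3.48-fold, with an adjusted p of 0.0279 from limma. Without control replicate 3 its adjusted p was 0.0782, without knockout replicate 1 it was 0.11 and without knockout replicate 2 it was 0.102, with differences of 1.81, 1.79 and 1.78. Rian, the host of many small nucleolar RNAs, gave 5.35, 5.05 and 5.14 on control arrays and 6.60, 6.86 and 6.32 on knockout arrays. It rose by 1.41 (standard error 0.14), or 2.66-fold, with a limma adjusted p of 0.00596, and it passed with each array left out in turn. The lowest control signal for both RNAs was on control replicate 2.

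Dlk1, a membrane protein related to the Notch ligands that restrains the maturation of fat cell precursors, read 7.73, 7.81 and 7.73 in controls and 8.57, 8.42 and 8.46 in knockout muscle. Its groups were tight and apart. The rise was 0.73 (standard error 0.07), or 1.65-fold, with a limma adjusted p of 0.00577, and it too passed with each array left out. The paternal genes farther along did not pass. Rtl1, a protein derived from a retrotransposon that is needed in placenta and in muscle development, read 6.33, 6.44 and 6.18 in controls and 6.40, 6.37 and 6.58 in the knockout, a difference of 0.13 (95% interval -0.08 to 0.35). Dio3, the deiodinase that inactivates thyroid hormones, read 5.05, 5.31 and 5.18 against 5.22, 5.09 and 5.42, a difference of 0.06 (95% interval -0.18 to 0.31). Both overlapped between groups, and their limma adjusted p were 0.595 and 0.868.

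**Figure D1:**
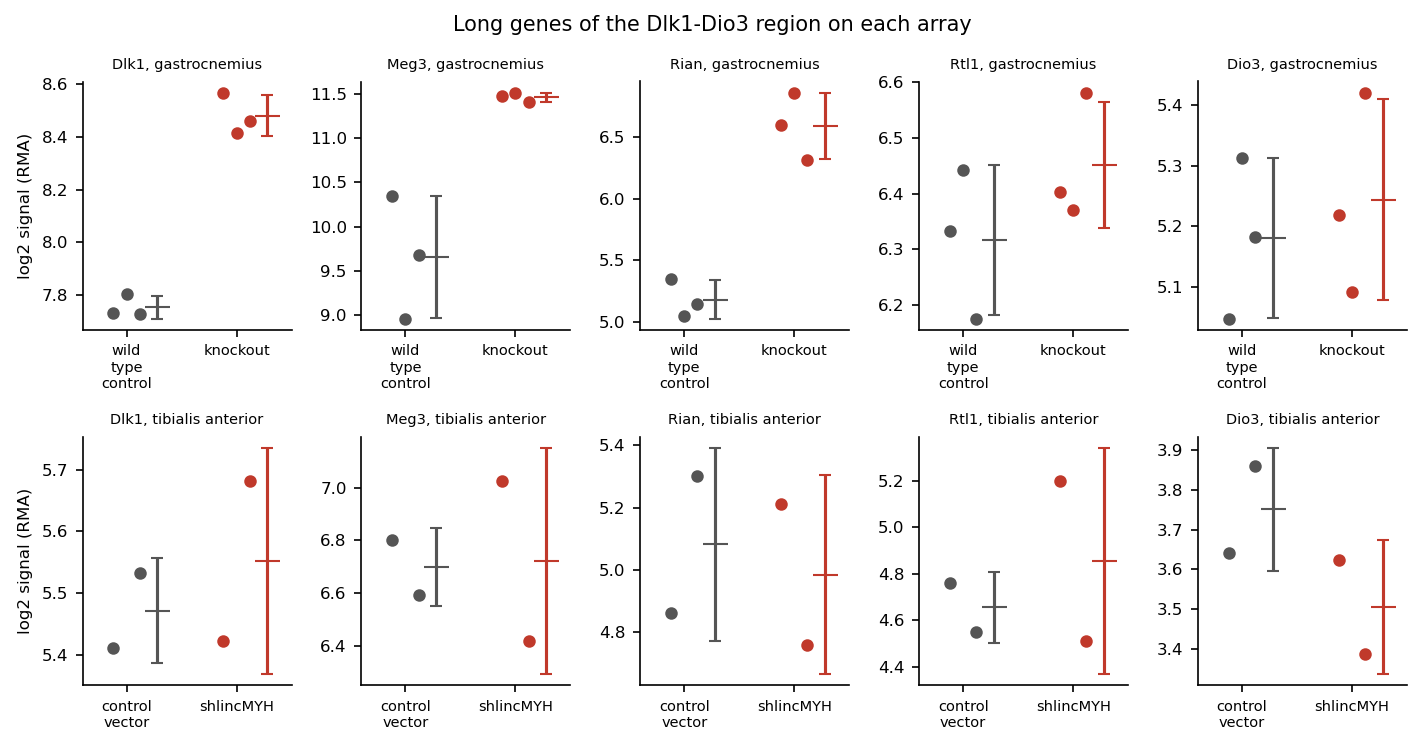
Log2 signal of the 5 long genes measured, on every array (points), in gastrocnemius (top) and TA (bottom); cross-bars and whiskers are the mean and SD of the group, and each panel has its own axis. In gastrocnemius Dlk1, Meg3 and Rian lay above every control array on all 3 knockout arrays, and in TA the groups of these 3 genes overlapped.

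Among the 8 hairpins opposite Rtl1, which stand on the maternal strand and some of which can pair with Rtl1 RNA, 4 rose and the median difference was 0.41. They were Mir665 at 1.08, Mir337 at 0.86, Mir540 at 0.51 and Mir127 at 0.50. Mir431 (0.33), Mir673 (0.23), Mir136 (0.19) and Mir434 (0.18) did not pass. Rtl1, on the other strand, stood at 0.13, and its difference from the hairpins was not tested. Both hairpins inside Rian rose, Mir341 by 0.96 and Mir370 by 0.64.

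The interval between Rian and Mirg held 23 measured hairpins, of which 10 rose, with a median difference of 0.62. Mir382 read 5.37, 4.81 and 4.87 on control arrays and 6.75, 6.72 and 6.53 on knockout arrays. That is a rise of 1.65 (standard error 0.15) with a limma adjusted p of 0.00418. Mir134, known in rodent neurons for limiting the growth of dendritic spines, read 7.31, 7.27 and 7.13 against 8.40, 8.39 and 8.30. It had the smallest adjusted p of the region, 0.00147 from limma, with a rise of 1.13 (standard error 0.07).

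Mir323 read 5.40, 4.97 and 5.35 in controls against 6.63, 6.60 and 6.16, a rise of 1.22 (standard error 0.16, limma adjusted p = 0.0134). Without knockout replicate 1 its adjusted p was 0.0537 and without knockout replicate 2 it was 0.0617, with rises of 1.14 and 1.15. Mir380 read 4.24, 4.04 and 4.30 against 5.64, 5.34 and 5.17. It rose by 1.19 (standard error 0.13, limma adjusted p = 0.0067) and passed with each array left out. Mir300 read 4.37, 4.22 and 4.72 against 5.49, 5.99 and 5.24, a rise of 1.14 (standard error 0.20, limma adjusted p = 0.0357). This call held only without knockout replicate 3: with any other array left out its adjusted p lay between 0.0507 (without control replicate 3) and 0.15 (without control replicate 2), through 0.0759 and 0.115 without knockout replicates 2 and 1 and 0.131 without control replicate 1, and the difference ran from 0.93 to 1.30. The other members of the interval that rose were Mir487b (0.99), Mir329 (0.75), Mir543 (0.69), Mir485 (0.62) and Mir679 (0.47).

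The 13 hairpins of the interval that did not pass ranged from 0.84 for Mir379, with a limma adjusted p of 0.053, to -0.04 for Mir299a. Between them lay Mir539 (0.80), Mir495 (0.62), Mir411 (0.42), Mir376b (0.40), Mir376a (0.37), Mir668 (0.36), Mir381 (0.30), Mir494 (0.22), Mir376c (0.10), Mir667 (0.09) and Mir666 (0.02). Mir299a was the 1 region gene below 0. It read 3.998, 3.86 and 3.80 in controls and 3.85, 3.75 and 3.93 in the knockout. Mir666 read 7.82, 7.99 and 7.85 against 7.86, 7.89 and 7.98, and both hairpins overlapped between groups (limma adjusted p 0.89 and 0.949). Of the near copies printed above, Mir300 rose by 1.14 while its neighbour Mir381 stood at 0.30 (95% interval 0.08 to 0.53), and Mir379 and Mir411, with the same seed, stood at 0.84 and 0.42. The difference between 2 hairpins was not tested.

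Inside Mirg 7 hairpins were measured and 2 rose. Mir377 had the largest rise of the region, 1.89 (standard error 0.20) or 3.70-fold, with a limma adjusted p of 0.00666. Its control arrays read 5.63, 5.05 and 5.67 and its knockout arrays 7.54, 7.48 and 6.99. Mir412 rose by 0.67. Mir369 (0.60), Mir496a (0.33), Mir541 (0.31), Mir154 (0.18) and Mir409 (0.07) did not pass, and the median of the 7 was 0.33. Mir409 read 6.27, 6.39 and 6.14 in controls against 6.30, 6.35 and 6.35, so that its groups overlapped (limma adjusted p = 0.786). Rises therefore occurred in every segment, and each segment also held hairpins that did not pass, except Rian with its 2.

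**Figure D2:**
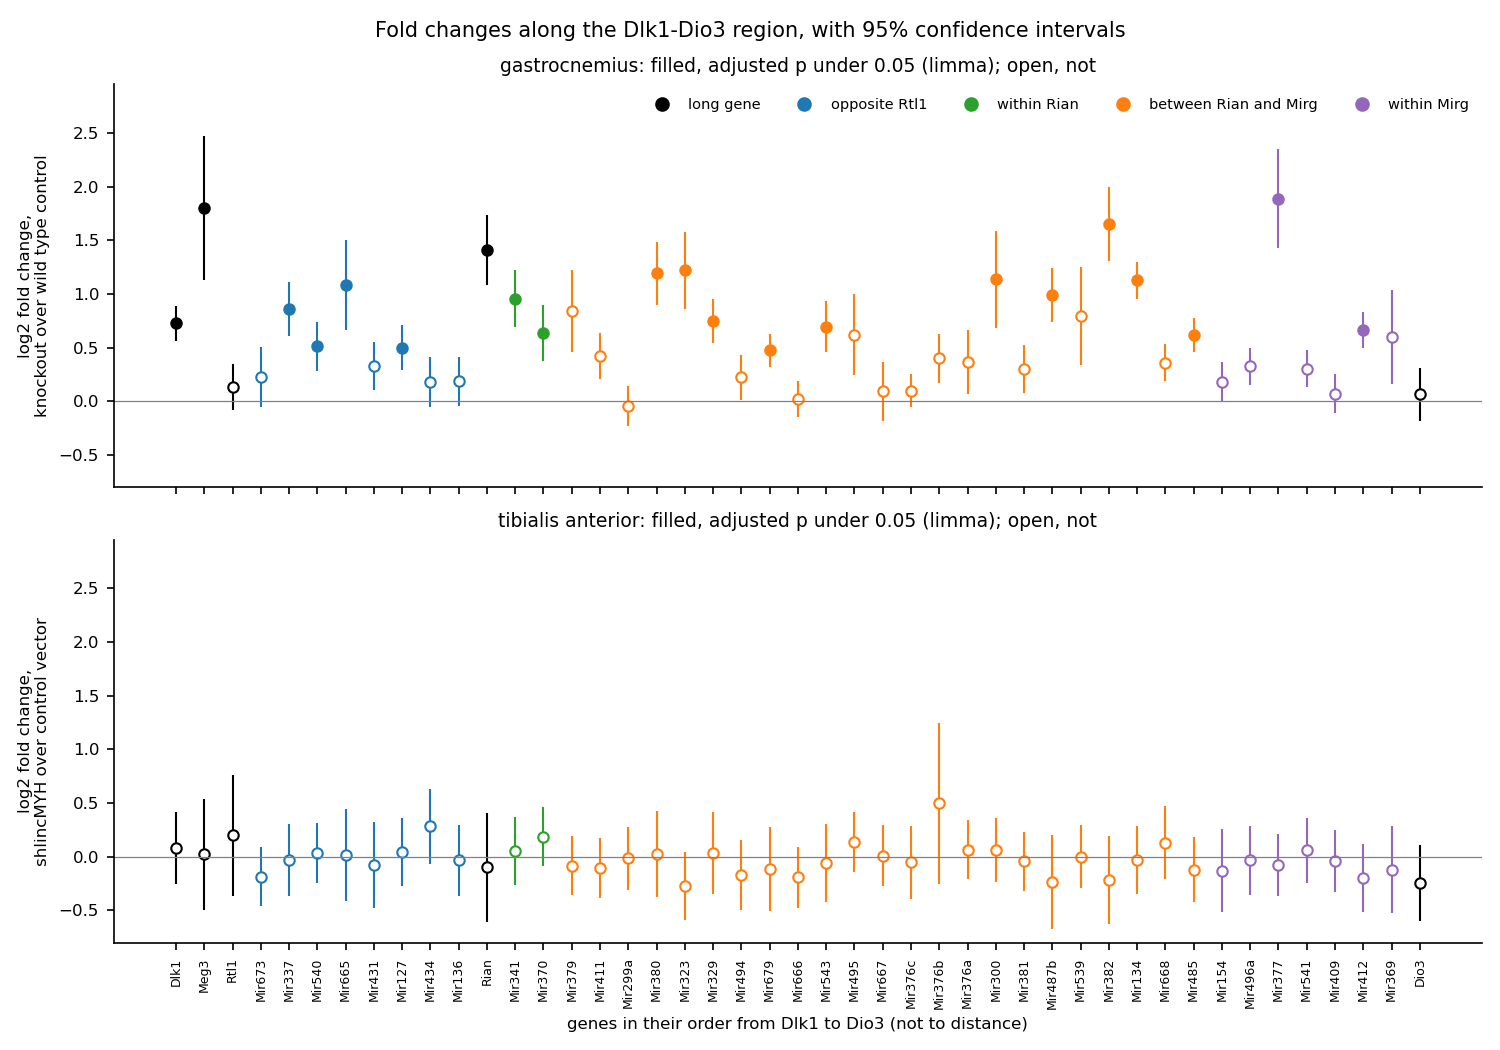
Log2 fold change (points) with its 95% confidence interval (bars) for the 45 measured genes in their order from Dlk1 to Dio3, coloured by segment, in gastrocnemius (top) and TA (bottom); filled points passed the limma test. In gastrocnemius 21 points are filled, all above 0, and Rtl1 and Dio3 lie beside the zero line, while in TA 0 are filled.

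The rise was seen on all 3 knockout arrays, and it was smallest on replicate 3. Over the 45 genes the median distance from the control mean was 0.60, 0.60 and 0.46 on knockout replicates 1, 2 and 3, and 0.05, -0.05 and 0.00 on control replicates 1, 2 and 3. Over all genes the same medians lay between -0.02 and 0.04. Control replicate 2 was the lowest control for 16 of the 21 genes that rose, and knockout replicate 3 was the lowest knockout array for 14 of them. Leaving out an array moved the count of region genes that rose. It was 8 without knockout replicate 2, 13 without knockout replicate 1 or control replicate 3, 14 without control replicate 1 or 2, and 27 without knockout replicate 3. Dlk1, Rian, Mir380, Mir487b, Mir382, Mir134, Mir377 and Mir412 passed in all 6 of these fits, and 41 of the 45 genes stayed above 0 in all of them.

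**Figure D3:**
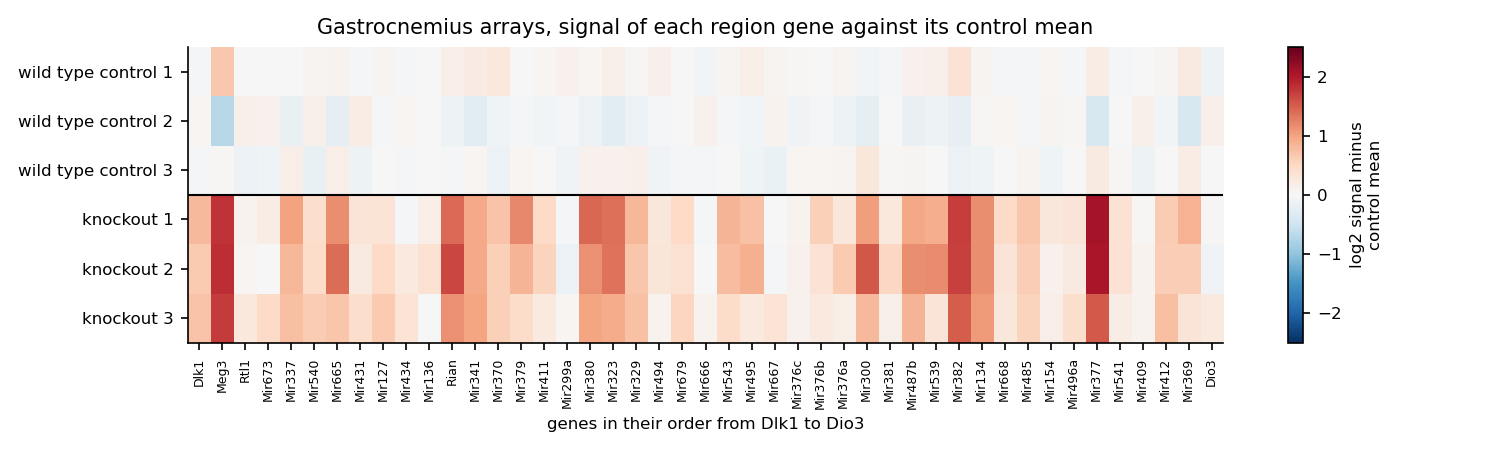
Log2 signal on each gastrocnemius array minus the mean of the 3 control arrays, for the 45 measured genes in their order along the region. The 3 knockout arrays are red for most genes, deepest at Meg3, Rian, Mir382 and Mir377, and control replicate 2 is the bluest of the controls.

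Signals differed widely between hairpin probe sets. The control signal of 19 region genes, all hairpins, lay below the 10th percentile of all genes in gastrocnemius, and 3 of these passed, while 18 of the 26 at or above it did. RefSeq gave a hairpin sequence for 39 of the 40 measured hairpins (not Mir666), with 29.1% to 62.0% G and C. Across these 39 hairpins, which share the arrays and are not replicates, the share of G and C went with the control signal (Pearson r = 0.87, Spearman rho = 0.82). With the fold change its correlation was near 0 (r = 0.04, rho = 0.09), although the median fold change was lowest in the third lowest in G and C. Of the 13 hairpins lowest in G and C 2 passed, of the middle 13 7 passed and of the highest 13 9 passed, with median differences of 0.37, 0.60 and 0.64. Signals of different probe sets were not read as levels of different RNAs.

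**Figure D4:**
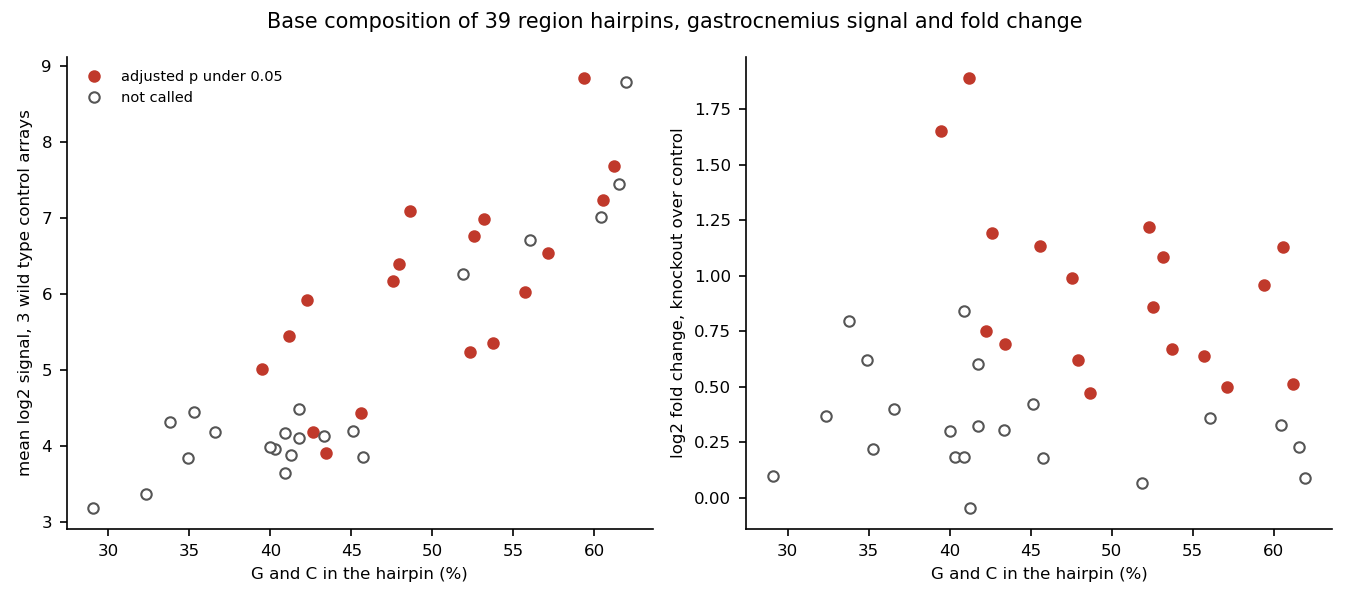
Share of G and C in 39 region hairpins against the mean log2 signal of the 3 control arrays of gastrocnemius (left) and against the log2 fold change in knockout muscle (right); filled points passed the limma test. Signal climbs with the share of G and C on the left, with r = 0.87, and on the right r is 0.04.

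The other microRNA genes of the array gave a different picture in the same muscle. Of 260 outside the region 0 rose and 0 fell by limma, and 8 had an unadjusted p under 0.05. Their differences ran from -0.41 to 0.35 around a median of 0.005, and 14 of them lay above the controls on every knockout array. The 8 measured microRNA genes of skeletal and heart muscle, such as Mir1a-1, Mir133a-1 and Mir206, also gave 0 calls and 0 with an unadjusted p under 0.05, with a median of -0.12. Of the 16 genes for microRNA processing and RNA editing, including Drosha, Dgcr8 and Dicer1, 0 passed and 1 had an unadjusted p under 0.05, with a range of -0.17 to 0.09.

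**Figure D5:**
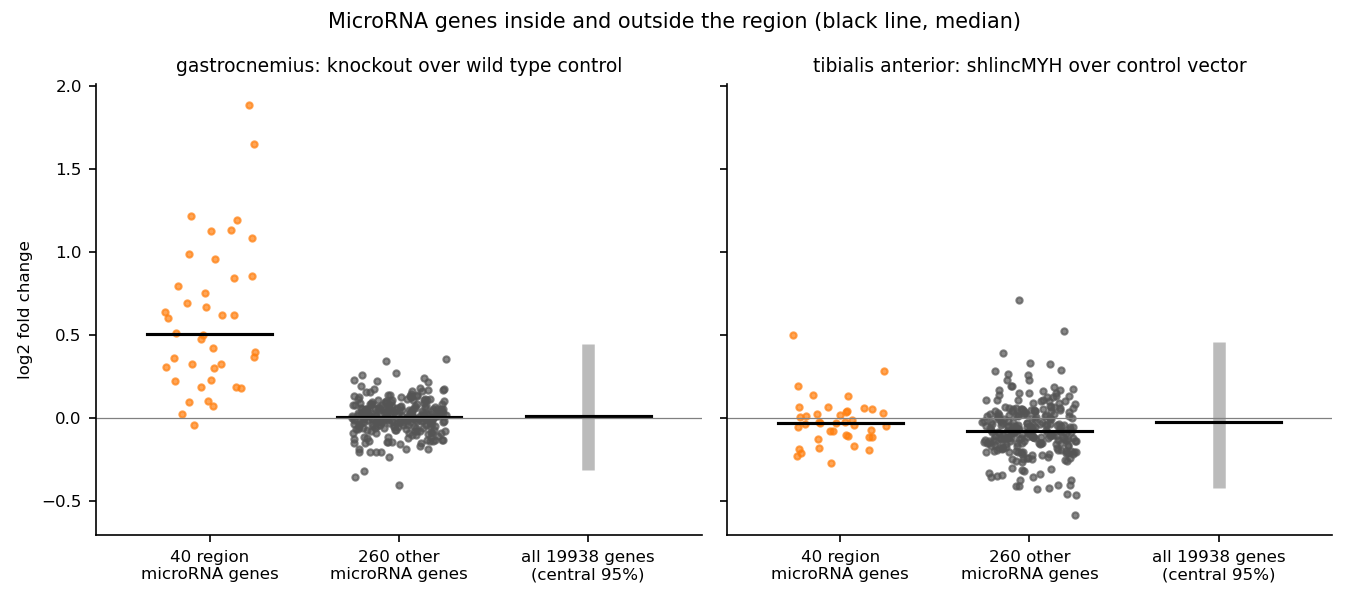
Log2 fold change of the 40 region hairpins and of 260 other microRNA genes (1 point a gene), with the central 95% of all 19938 genes (grey bar); black lines are medians. In gastrocnemius the region hairpins have a median of 0.50 and the others of 0.005, and in TA the medians are -0.03 and -0.08.

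Genes on both sides of the region did not pass. The 10 nearest measured genes beyond Dlk1, from Cyp46a1 to Begain, had differences of -0.31 to 0.21 in knockout muscle, and the 10 beyond Dio3, from Ppp2r5c to Ankrd9, -0.38 to 0.37. In limma 0 of these 20 were called, with unadjusted p under 0.05 for 4 and 3 of them. Among 15 genes known to act on the region's imprint or transcription, among them Zfp57 and Trim28, which protect imprints, the insulator protein Ctcf, the DNA methyltransferases and Mef2a, 0 passed and 2 had an unadjusted p under 0.05. These 2 went opposite ways. Mef2c was lower on all 3 knockout arrays by 0.26 (limma adjusted p = 0.0932), and Dnmt1 was higher on all 3 by 0.265 (limma adjusted p = 0.176). Of the 15 genes 3 lay above every control on all knockout arrays and 2 lay below, where 11.0% and 9.85% of all genes did.

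Of 25 other imprinted genes 3 rose and 1 fell. Zdbf2 went from a mean of 6.57 to 8.63 (2.07, standard error 0.32), Peg10, a retrotransposon-derived gene of placenta, from 7.38 to 8.50 (1.12, standard error 0.19), and Igf2, the fetal growth factor, from 9.98 to 10.98 (1.01, standard error 0.15). Asb4 fell from 7.91 to 7.03, by 0.87 (standard error 0.12). Their limma adjusted p were 0.025, 0.0356, 0.0193 and 0.0164, and the median of the 25 was 0.24. An unadjusted p under 0.05 was reached by 15 of the 25, and 18 were above 0. On all 3 knockout arrays 13 of them were above every control, where 11.0% of all genes were, and 1 was below. In the Notch pathway, to which Dlk1 is related, 0 of 17 genes passed and 4 had an unadjusted p under 0.05; 16 were above 0, with a median of 0.10.

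Among 8 genes that carry, convert or read thyroid hormones, the substrates of Dio3, 2 fell and 0 rose. Over all genes 0.833% fell and 0.908% rose. Rxrg, a partner of the hormone's receptors, fell by 0.90 (standard error 0.12, limma adjusted p = 0.0143), and Slc16a10, a transporter of the hormone, fell by 0.68 (standard error 0.10, limma adjusted p = 0.0179).

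Markers of other cells moved in the same comparison. All 6 macrophage markers were higher on every knockout array, with a mean over the list of 8.30 to 8.54 in controls and 8.80 to 9.56 in the knockout, and Mrc1 was the 1 called, at 0.77 (limma adjusted p = 0.0139). Satellite cell markers went from 7.43 to 7.55 in controls to 7.70 to 7.87 in the knockout, with 4 of 6 apart, and fibroblast markers from 10.35 to 10.67 to 10.80 to 10.88, with 3 of 6 apart. Muscle fiber markers lay at 13.50 to 13.55 in controls and 13.37 to 13.44 in the knockout. Of these 8 genes 5 were lower on every knockout array. They were the fast fiber genes Pvalb (-0.41), Tnni2 (-0.14), Myh4 (-0.12) and Tnnt3 (-0.09), and Ckm (-0.12). Acta1 (-0.01), Mb (-0.02) and Des (0.02) overlapped, and 0 of the 8 passed in limma. Adipocyte markers (7.35 to 8.10 against 7.53 to 8.32) and endothelial markers (9.22 to 9.62 against 9.31 to 9.44) overlapped. Schwann cell and nerve markers stood at 9.19 to 9.33 against 9.37 to 9.43, with 1 of 3 genes apart, and smooth muscle markers at 8.37 to 8.44 against 8.22 to 8.40, with 2 of 4 genes lower on every knockout array. Over all genes 11.0% lay above every control on all 3 knockout arrays and 9.85% lay below. None of the markers in these lists was near the floor of the arrays, the dimmest standing at the 41.1st percentile. Whole muscle was measured, so a change in the number of cells of a type and a change in RNA per cell cannot be told apart. The part of these cells in the rise of Dlk1, Meg3, Rian and the hairpins was not tested.

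The promoter windows of the region were searched for sites of 2 kinds of muscle transcription factor, MEF2 and the E-box factors. RefSeq gave 6 windows of 300 bases for Dlk1, Meg3 (2 starts), Rian, Mirg and Dio3. The MEF2 site, searched on both strands, was in 0 of the 6, against 3.19% of 32851 promoter windows. The E-box, CANNTG, which reads the same way on both strands, was in 4 of the 6, against 72.3% of all windows. The windows of Rian and of the second Meg3 start are shown because these RNAs rose most among the long genes and each holds 1 E-box, marked in capitals.
Meg3, chr12:109545148-109545447, plus strand, GRCm38.p6: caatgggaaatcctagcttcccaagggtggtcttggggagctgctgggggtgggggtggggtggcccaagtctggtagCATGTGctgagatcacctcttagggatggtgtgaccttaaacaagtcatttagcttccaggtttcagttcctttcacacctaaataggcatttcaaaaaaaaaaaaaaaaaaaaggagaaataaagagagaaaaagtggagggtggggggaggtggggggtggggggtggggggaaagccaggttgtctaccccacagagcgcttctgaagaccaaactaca
Rian, chr12:109603695-109603994, plus strand, GRCm38.p6: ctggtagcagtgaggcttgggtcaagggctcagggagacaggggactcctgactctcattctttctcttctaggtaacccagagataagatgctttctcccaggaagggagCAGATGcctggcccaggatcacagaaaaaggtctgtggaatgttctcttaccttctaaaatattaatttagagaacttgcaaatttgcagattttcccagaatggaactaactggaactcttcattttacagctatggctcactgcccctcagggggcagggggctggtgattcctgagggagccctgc
The second Meg3 start lies within the gene, and its first window held 0 matches of either motif. A match is a description of the letters only, and its absence says nothing of the factors beyond these windows.

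In TA fibers with shlincMYH, 0 of the 45 region genes passed the limma test, 0 had an unadjusted p under 0.05 (8.65% of all genes did), and the smallest adjusted p was 0.629. Over all genes 0.015% rose and 0% fell. By the methods' t-test 1 region gene was higher and 1 lower at an unadjusted p under 0.05, and 0 after adjustment. Differences ran from -0.27 to 0.50 around a median of -0.03, where all genes had a median of -0.03. For 4 genes both shlincMYH arrays lay above both controls and for 9 both lay below, against 16.3% and 23.0% of all genes. With 2 arrays a group the intervals were wide: the largest standard error was 0.31. The TA control signal of 22 of the 45, all hairpins, lay below the 10th percentile of all genes.

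Meg3 read 6.80 and 6.59 on the control vector arrays and 7.03 and 6.42 on the shlincMYH arrays, a difference of 0.02 (95% interval -0.49 to 0.54). The 1.80 seen in gastrocnemius, with its own 95% interval of 1.13 to 2.47, lies outside this interval. The contrast of the 2 comparisons, given below, did not pass for Meg3 (limma adjusted p = 0.166). Rian read 4.86 and 5.30 against 5.21 and 4.76 (-0.10, 95% interval -0.61 to 0.41). Dlk1 read 5.41 and 5.53 against 5.42 and 5.68 (0.08, 95% interval -0.25 to 0.42). These 3 genes, all called in gastrocnemius, overlapped between the TA groups. Rtl1 read 4.76 and 4.55 against 5.20 and 4.51, and Dio3 3.64 and 3.86 against 3.62 and 3.39, with differences of 0.20 (95% interval -0.36 to 0.76) and -0.24 (95% interval -0.59 to 0.11). Dio3 was below both controls on both shlincMYH arrays, as were 23.0% of all genes, and it did not pass (limma adjusted p 0.689).

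Of the 6 hairpins farthest up in TA, Mir370 was also called in gastrocnemius, where 18 of the 40 measured hairpins were. Mir376b read 2.97 and 2.74 in controls against 3.86 and 2.85, so its difference of 0.50 came from shlincMYH replicate 1, and without that array it was -0.004. Mir434 read 2.86 and 2.68 against 3.18 and 2.93 (0.28), and Mir370 5.35 and 5.27 against 5.49 and 5.50 (0.19). The next were Mir495 with 2.80 and 2.81 against 2.90 and 2.98 (0.14), Mir668 with 5.05 and 4.85 against 5.20 and 4.97 (0.13) and Mir376a with 2.17 and 2.20 against 2.23 and 2.27 (0.07). The groups did not overlap for Mir434, Mir370, Mir495 and Mir376a, and they overlapped for Mir376b and Mir668. These 4 were the only ones of the 45 region genes above both controls, where 16.3% of all genes were. The 6 were picked for their fold changes, so their separation is description only. None of the 6 passed, with limma adjusted p of 0.64 to 0.92.

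The 3 lowest hairpins in TA, Mir323, Mir487b and Mir382, were all called in gastrocnemius, where 18 of the 40 measured hairpins were. Over the 39 hairpins with a sequence, which share the arrays of each muscle, the fold changes in TA and in gastrocnemius had r = -0.21 and rho = -0.09. Mir323 read 3.18 and 3.15 in TA controls against 2.78 and 3.01, a difference of -0.27. Mir487b read 4.30 and 4.05 against 4.16 and 3.73 (-0.23), and Mir382 read 2.90 and 2.74 against 2.39 and 2.82 (-0.21). None of the 3 passed, with limma adjusted p of 0.629 for Mir323, 0.772 for Mir487b and 0.778 for Mir382. Without shlincMYH replicate 1 the difference for Mir382 was -0.0023, and without shlincMYH replicate 2 that for Mir487b was -0.018. Mir323 and Mir382 stood at percentiles 8.01 and 4.1 of the TA controls, and Mir487b at 24.1. By segment the TA medians were -0.01 for the hairpins opposite Rtl1, 0.12 for those in Rian, -0.04 for the interval and -0.07 for those in Mirg, and the 260 other microRNA genes had a median of -0.08.

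Other genes differed in the same fibers. The imprinted Zdbf2 rose by 2.58 in the same arrays (standard error 0.16, limma adjusted p = 0.0165), the 1 gene called of the 25 other imprinted genes, while the region's genes did not pass. Endothelial markers were lower on both shlincMYH arrays for 5 of 6, where 23.0% of all genes were. Their mean over the list was 7.28 to 7.34 in controls and 6.25 to 6.97 with shlincMYH. In limma 0 of them passed and 5 had an unadjusted p under 0.05, where 8.65% of all genes did. All 4 smooth muscle, all 4 adipocyte and all 3 Schwann cell and nerve markers were below 0, and 0 passed. Their medians were -0.46, -0.15 and -0.26. Of the 6 fibroblast markers 4 were above 0, as were 43.7% of all genes. The part of these cells in the region's TA values was not tested. Macrophage markers (6.60 to 7.43 against 7.04 to 7.12) overlapped, and satellite cell markers stood at 5.33 to 5.39 against 5.44 to 5.46. The 6 satellite cell markers were mixed, with 3 above 0 and 3 below, a median of 0.002 and 0 called. On both shlincMYH arrays 2 of them were above both controls and 1 was below, where 16.3% and 23.0% of all genes were.

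A contrast of both comparisons in 1 limma fit over the 10 arrays asked whether a gene changed by unlike amounts in knockout gastrocnemius and in shlincMYH TA fibers. It called 5 of the 45 region genes, all with the higher fold change in gastrocnemius, where 0.145% of all genes were called in either direction and 0.0702% in that one. The contrast was 1.96 for Mir377 (standard error 0.28, adjusted p = 0.027), 1.86 for Mir382 (standard error 0.25, adjusted p = 0.0193), 1.49 for Mir323 (standard error 0.23, adjusted p = 0.0396), 1.16 for Mir134 (standard error 0.14, adjusted p = 0.0111) and 0.87 for Mir412 (standard error 0.13, adjusted p = 0.0397). In the TA controls Mir377, Mir382, Mir412 and Mir323 stood low, at percentiles 1.35, 4.1, 7.69 and 8.01 of all genes, and Mir134 at 66.6. In the gastrocnemius controls the same 5 stood at 22.8, 16.4, 21.4, 19.5 and 54.1. Whether the low TA signal hid a change was not tested. The fold change was higher in gastrocnemius for 41 of the 45, and 29 had an unadjusted p under 0.05. The shares of all genes for these 2 counts were not computed, so the counts are description only. All genes leaned the same way, with a fold change above 0 for 52.7% in gastrocnemius and 43.7% in TA. Meg3 (contrast 1.78, adjusted p = 0.166), Rian (1.51, adjusted p = 0.0612) and Dlk1 (0.65, adjusted p = 0.143) did not pass it. The count was 0 without knockout replicate 2, 1 without knockout replicate 1, control vector replicate 1 or shlincMYH replicate 1, 2 without shlincMYH replicate 2 or gastrocnemius control replicate 1 or 2, 3 without gastrocnemius control replicate 3, and 5 without either of the other arrays. Muscle, treatment and control all differ between the 2 experiments and cannot be told apart.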

How the data were processed

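The log2 signals deposited by the authors came from RMA (background subtraction, quantile normalization and a summary per probe set), named together with Partek in the submitters' processing notes without versions; the methods name another RNA amount and kit than the labels. Not given in the sources used here were the annotation release and whether TA and gastrocnemius went through RMA in 1 run. RMA hides a shift of all genes together. The methods say that the TA muscles of a condition came from different mice, with a control plasmid in the opposite leg; which arrays share a mouse, and whether the gastrocnemius arrays are separate mice, is not stated, so p-values there measure the spread between arrays, which may be technical. Arrays have no read depth; their number limits the precision.

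The table held 35556 probe sets with 0 missing values. Probe sets with 1 gene symbol (21789) were used, the one with the highest mean for the 999 genes with several; 21698 matched RefSeq by Entrez number, which gave names and order. For each muscle the arrays were tested separately by limma 3.58.1 under R 4.3.3 (two-sided lmFit and eBayes, Benjamini-Hochberg over 19938 genes, threshold 0.05), and the test was checked on simulated data. Python 3.11.15, pandas 2.3.3 and matplotlib 3.10.9 handled tables and plots.

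The members and lists were chosen with earlier results of these data known. Every measured member was named; the long genes and, per tissue, the 6 highest and 3 lowest hairpins were given by array, and of the lists the genes called. Alternatives were quantile normalization, median centring, leaving out dim genes, the mean of probe sets, 1 test per probe set, the 10 arrays fitted jointly, weights per array, blocking on the replicate number, a robust prior with an intensity trend, the methods' t-test (unpaired, two-sided), and leaving out each array. Probe sets with several genes entered no test. The gene deleted in the knockout is not reported here.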

Additional observations from a re-analysis of the deposited data

Results flagged for a closer look

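Between the comparisons 5 hairpins differed by the contrast of all 10 arrays (limma), each with the higher fold change in knockout gastrocnemius than in shlincMYH TA fibers. The contrast was 1.49 for Mir323, 1.86 for Mir382, 1.16 for Mir134, 1.96 for Mir377 and 0.87 for Mir412. All but Mir134 lay below the 10th percentile of all genes in the TA controls.

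Probe sets outside the tests also lay apart in gastrocnemius. The 3 probe sets that carry 2 genes of the region each (members or not), and so name neither, were higher on every knockout array than on every control array, by 0.71, 1.67 and 2.48. In this order they carry Mir433 with 6430411K18Rik, Rian with AF357355, and Mirg with Mir410. The third of these read 6.55, 5.30 and 6.12 in controls against 8.62, 8.47 and 8.31. That is the largest difference among the region's probe sets, with 2.48 against 1.89 for Mir377. In TA the same probe sets gave -0.08, -0.43 and 0.01. Among the small nucleolar RNAs of the region, which are no members, DQ267102 rose by 1.97 in gastrocnemius (standard error 0.28, limma adjusted p = 0.0187), while DQ267101 stood at 0.38 and AF357341 at 0.12, neither past the threshold.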

How the results depend on the processing

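The count of region genes that rose in gastrocnemius, 21, lay between 16 and 30 under all settings tried on the same genes except the methods' t-test, which called 0 after adjustment and 30 at an unadjusted p under 0.05. With dim genes left out 8 of 12 remained, with a median of 0.62. Leaving out an array gave 8 to 27. Over all genes 347 were called in gastrocnemius. This became 543 with an intensity trend and a robust prior, 989 with array weights, 186 with a replicate block, 4 with the methods' t-test and 51 to 560 with an array left out. The TA count of 3 became 10 after median centring, 131 with all 10 arrays in 1 fit, 5 with the replicate block, 0 with the t-test and 0 with any array left out, and 0 region genes were called in each. The TA median of region genes was 0.0062 after quantile normalization and 0.0162 without dim genes. In the contrast of comparisons the 5 region genes became 2 after quantile normalization, 1 without dim genes, 3 with array weights, 2 with the replicate block and 0 to 5 with an array left out; all genes, 29, became 16 without dim genes, 48 with the trend and 6 to 100 with an array left out.

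Whether a replicate number marks a mouse, such as both legs of a TA mouse, is not stated, and the numbers were not taken as pairs. Deviations of same-numbered arrays from their group means correlated at 0.216, -0.137 and 0.084 in gastrocnemius and 0.185 in TA. With 2 arrays a group the other matching gives -0.185 by construction, so the TA value cannot show whether arrays are paired. The replicate block left 16 region genes called in gastrocnemius and 0 in TA. Of the genes given by array, each that rose lost its call under the t-test, and Mir300 also after quantile normalization and with the block, and Meg3 with the trend. Mir666 turned to -0.0319 after quantile normalization and -0.023 after centring. With an array left out the sign turned for gastrocnemius Dio3 (-0.0252 to 0.14), Mir299a (-0.0884 to 0.0121) and Mir666 (-0.0159 to 0.0709), for TA Dlk1 (-0.0486 to 0.21), Meg3 (-0.28 to 0.33), Rian (-0.32 to 0.13), Rtl1 (-0.14 to 0.54) and Mir376b (-0.004 to 1.00), and for the contrast of Mir299a (-0.031 to 0.0879), Mir376b (-0.40 to 0.60), Mir434 (-0.0247 to 0.23) and Rtl1 (-0.28 to 0.41), none of them called. The cause of these changes was not tested.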

Other observations

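Beside the region, the imprinted genes that rose in knockout gastrocnemius were also higher on both shlincMYH arrays of TA fibers. Zdbf2 went from 6.02 to 8.60 there (2.58), Peg10 from 5.30 to 7.74 (2.44, standard error 0.39) and Igf2 from 7.22 to 8.62 (1.41, standard error 0.30). Of these only Zdbf2 passed in TA, since the limma adjusted p was 0.252 for Peg10 and 0.41 for Igf2. Asb4, which fell in gastrocnemius, stood at -0.39 in TA, lower on both shlincMYH arrays (limma adjusted p = 0.607). Meg3, Rian and Dlk1 overlapped between the TA groups, as given above. The difference between these imprinted genes and the region was not tested.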
